A study of Danio rerio with 6 samples.

Results

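The genes followed here encode the factors of nonsense-mediated mRNA decay (NMD), the pathway that destroys transcripts whose reading frame ends too early. They were the rows of the expression tables whose Ensembl identifier has the symbol *upf1*, *upf2*, *upf3a*, *upf3b*, *smg1*, *smg5*, *smg6*, *smg8* or *smg9*. Of these 9 symbols, 8 were found among the 34965 genes of the table, and *upf2* was not analysed here. RNA-seq was done on zebrafish heads of the AB strain at 36 hpf (hours post-fertilization), with 6 libraries, 3 from *prpf31*-/- mutants and 3 from wild-type siblings, each made from 1 pool of 35 heads. The mutants carry a CRISPR/Cas9 frameshift allele kept as a stable line, and *prpf31*, which encodes a protein of the spliceosomal tri-snRNP, is also supplied by the mother. Because a library is a pool of whole heads, fewer cells with a transcript and less of it per cell cannot be told apart.

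NMD acts on messages while they are translated. When a ribosome stops well before the end of a message, the helicase Upf1 is held there by the release factors, and Upf2 and Upf3 link it to an exon junction complex left by splicing further downstream. The kinase Smg1, held in check by its partners Smg8 and Smg9, then phosphorylates Upf1, which draws in the endonuclease Smg6 and the adaptor Smg5. In human cells the messages of several of these factors are themselves broken down by the pathway, so that they accumulate when it slows, and mis-spliced RNAs with a premature stop are among its usual substrates.

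The targeted gene was examined first. The count of *prpf31* (ENSDARG00000095904) was 1203, 1663 and 1864 in the mutants and 2310, 2480 and 2636 in the siblings. Scaled to library size with the TMM factors of edgeR, as CPM (counts scaled to a common library size), it was 22.4, 24.5 and 27.3 in the mutants and 38.7, 37.9 and 37.6 in the siblings, so the groups did not overlap. This gave a log2 fold change of −0.62 with a standard error of 0.11 (adjusted p = 0.018 in edgeR's quasi-likelihood test over 24277 genes), in the direction that the labels give. Across the leave-one-out fits the adjusted p of *prpf31* ran from 0.0066 to 0.0898, and it was above 0.05 without mutant 2 (0.0629), sibling 1 (0.0776), sibling 2 (0.0898) or sibling 3 (0.0883).

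The libraries held between 58706617 and 66381302 counts. Mutant 1 stood apart: its TMM factor was 0.816, and those of the remaining 5 were 1.02 to 1.06. Its top 10 genes held 14.5% of all counts, where the share was 8.14% to 9.54% in the remaining 5. The summed CPM of 7 skeletal muscle genes was 68292 in mutant 1, 24610 and 24176 in mutants 2 and 3, and between 25728 and 31249 in the siblings. The summed CPM of 9 retinal genes was 18.5 in mutant 1, 77.1 and 67.9 in mutants 2 and 3, and between 79.3 and 99.8 in the siblings. The summed CPM of 6 lens genes was 127, 568 and 539 in the mutants and between 738 and 934 in the siblings. The summed CPM of 7 neuronal genes was between 486 and 829 in the mutants and between 976 and 1031 in the siblings. At an adjusted p of 0.05 or lower, 1 gene was called lower in each of the retinal, lens (*cryaa*) and neuronal lists. Among all tested genes 3.83% were called lower. Neural and retinal genes that define the head were detected in every group, with no listed marker at 0 counts. The results for the decay factors are therefore given with and without mutant 1, and the part of the muscle, retinal, lens and neuronal RNA in them was not tested.

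The mutant and sibling libraries overlapped for 7 of the 8 decay factors, and for *smg9* each mutant library was below each sibling library. None of the 8 was called in edgeR's test without a block, a call being an adjusted p that does not exceed 0.05. In that fit 3.96% of the 24277 tested genes were called higher and 3.83% lower. At an unadjusted p under 0.05 there was 1, *smg9*, and the share of all genes at this cutoff was not counted. DESeq2 called 1 of the 8 lower and none higher, where it called 1681 lower and 1768 higher among 31067 genes. With the replicate number as a block, edgeR called 1 of the 8 lower (*smg9*) and none higher. The blocked fit called 6.61% of all tested genes lower and 6.09% higher. Of the fold changes without the block, 4 were above and 4 below 0. Their median was −0.0027 on the log2 scale, against a median of 0.019 over all tested genes. The 3 mutant libraries lay below the 3 sibling libraries for 1 of the 8 genes (*smg9*), a pattern that 17.4% of all tested genes had, and above them for none, against 14.9%.

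**Figure D1:**
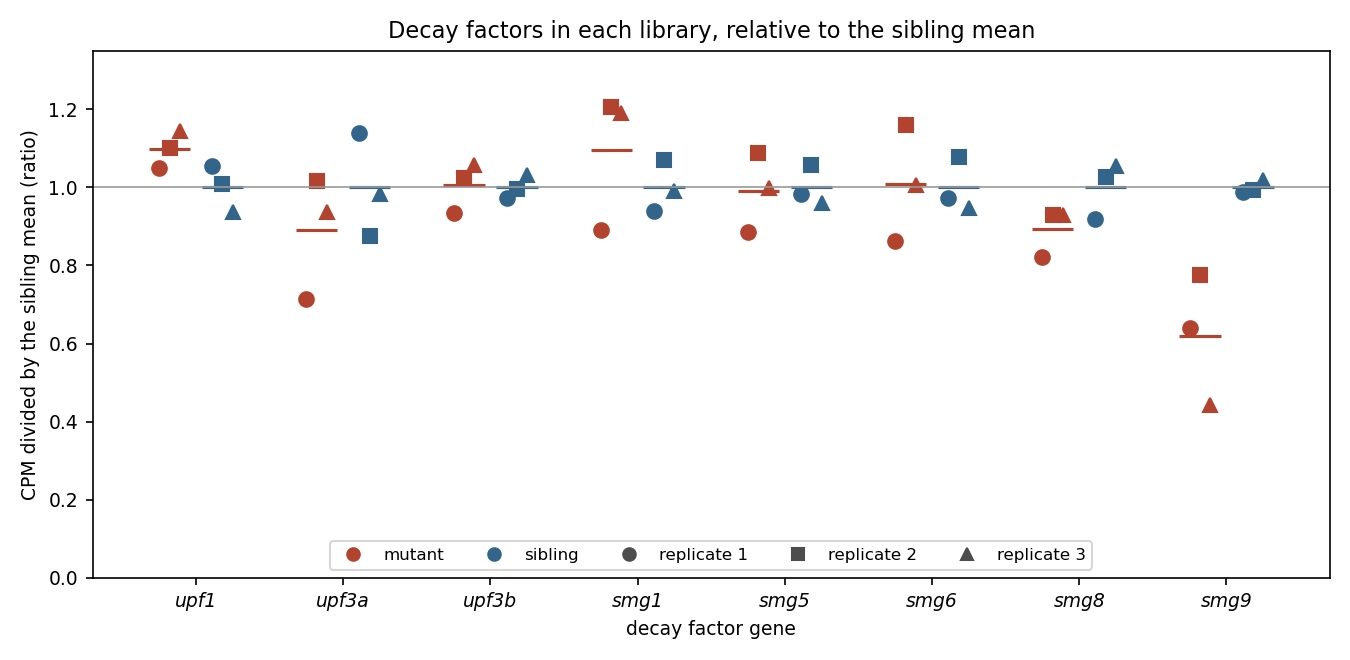
Level of each decay factor in the 6 libraries, as CPM divided by the mean of the 3 siblings (linear axis from 0). Mutants are red and siblings blue, the marker shape gives the replicate number, and the bars are group means. The 3 mutants lie below the 3 siblings for *smg9*, and the groups overlap for the other 7 genes.

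Upf1 (ENSDARG00000016302) is the helicase on which the pathway turns. Its message was at 149, 157 and 163 CPM in the mutants and 150.2, 143 and 133 CPM in the siblings. Mutants 2 and 3 were above every sibling, whereas mutant 1 was below sibling 1. The group means were 156 ± 6.89 and 142 ± 8.50 CPM in mutants and siblings (SD, n = 3 each). The log2 fold change of 0.13 had a 95% confidence interval from −0.11 to 0.38 (adjusted p = 0.488 in edgeR's test). A rise of *upf1* above 1.3-fold was thus outside this interval.

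The proteins Upf3a and Upf3b are paralogs that connect Upf1 to the exon junction complex, and in mammalian cells Upf3b is the more active of the pair. The message of *upf3b* (ENSDARG00000000489) stood at 31.2, 34.2 and 35.4 CPM in the mutants and 32.6, 33.3 and 34.5 CPM in the siblings, a log2 fold change of 0.0076 with a 95% interval from −0.23 to 0.25. The groups overlapped fully, with the lowest and the highest values both in mutants. The message of *upf3a* (ENSDARG00000069297) stood at 6.37, 9.04 and 8.35 CPM in the mutants and 10.1, 7.80 and 8.75 CPM in the siblings. Its log2 fold change of −0.17 had the widest interval of the 7 genes other than *smg9*, from −0.58 to 0.25 (adjusted p = 0.614 in edgeR's test). Without mutant 1 it was −0.042.

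The balance between the paralogs was compared per gene length, in the FPKM (fragments for each kilobase of a gene at a common depth) of the deposited table. The ratio of *upf3a* to *upf3b* was 0.210, 0.272 and 0.243 in the mutants and 0.321, 0.241 and 0.262 in the siblings. The means were 0.242 ± 0.031 and 0.275 ± 0.0415 (SD, n = 3 each), and the groups overlapped (2-sided exact permutation test, p = 0.5, where 3 against 3 libraries can give no p below 0.1). In each of the 6 libraries *upf3b* was the more abundant message.

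The kinase that marks Upf1 and its regulators were measured next, and none of the 3 was called in edgeR's test without a block. The message of *smg1* (ENSDARG00000054570) was at 166, 225 and 222 CPM in the mutants and 176, 199 and 185 CPM in the siblings. Mutants 2 and 3 were above, and mutant 1 below, every sibling. The log2 fold change was 0.13 (95% interval −0.21 to 0.47, adjusted p = 0.629 in edgeR's test). Without mutant 1 it was 0.25 (edgeR adjusted p = 0.0733), and with both libraries of replicate 1 left out and the replicate number as a block, a setting chosen after seeing the data, it was 0.21 (edgeR adjusted p = 0.0364). With limma on FPKM, which also put the median over all genes below 0, it was between −0.015 and −0.012.

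Smg8 and Smg9 bind each other and Smg1. The message of *smg8* (ENSDARG00000061378) had 17.1, 19.4 and 19.4 CPM in the mutants and 19.2, 21.4 and 22.0 CPM in the siblings. Each mutant was below the sibling with its own replicate number, by 0.892-, 0.906- and 0.881-fold, but the groups overlapped. The log2 fold change was −0.16 (95% interval −0.43 to 0.10, adjusted p = 0.424 in edgeR's test).

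The message of *smg9* (ENSDARG00000076627) had 11.2, 13.6 and 7.77 CPM in the mutants and 17.3, 17.4 and 17.9 CPM in the siblings, or 603, 923 and 531 counts against 1034, 1139 and 1252. Every mutant was below every sibling, and mutant 3 was the lowest. The mean was 10.9 ± 2.94 CPM in mutants and 17.5 ± 0.307 CPM in siblings (SD, n = 3 each), so the mutants varied among themselves by 27.1% of their mean and the siblings by 1.75%. The log2 fold change was −0.69 (standard error 0.20, 95% interval −1.15 to −0.23), or 0.62 times the sibling level, with an adjusted p of 0.0784 in edgeR's test, above the threshold. With the replicate number as a block the log2 fold change was −0.72 and the adjusted p of *smg9* fell to 0.0387 (edgeR), where 6.61% of all tested genes were called lower and 6.09% higher. Its ratios of mutant to sibling within the pairs were 0.648, 0.783 and 0.434.

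The size of the *smg9* difference depended on mutant 3. Without mutant 3 the log2 fold change was −0.50 (edgeR adjusted p = 0.127), and across the leave-one-out fits it ran from −0.89 to −0.50 with adjusted p values of 0.0554 to 0.22. In the blocked fit the call was kept without replicate 1 (log2 fold change −0.78, edgeR adjusted p = 0.0115) and without replicate 2 (−0.91, edgeR adjusted p = 0.00253) and lost without replicate 3 (−0.49, edgeR adjusted p = 0.219), settings chosen after seeing the data. The direction was the same in each of these fits. Without mutant 1, the library rich in muscle RNA, the log2 fold change was −0.72 (edgeR adjusted p = 0.0601), so the difference was as large without it.

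The ratios of these 3 messages within a library were chosen for description after their values had been seen, so they support nothing further. In FPKM, the ratio of *smg9* to *smg8* was 1.02, 1.09 and 0.623 in the mutants and 1.40, 1.26 and 1.26 in the siblings. The ratio of *smg9* to *smg1* was 0.428, 0.384 and 0.221 in the mutants and 0.625, 0.553 and 0.614 in the siblings. Both ratios were lower in each mutant than in each sibling. The ratio of *smg8* to *smg1*, at 0.421, 0.352 and 0.356 in the mutants and 0.447, 0.438 and 0.486 in the siblings, did not overlap either. For each of these 3 ratios the 2-sided exact permutation test gave p = 0.1, the smallest that 3 against 3 libraries allow.

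Downstream of phosphorylated Upf1, *smg6* encodes the endonuclease that cuts the message near the early stop, and *smg5* encodes an adaptor that brings the decay enzymes for its ends. The message of *smg5* (ENSDARG00000041481) was at 68.0, 83.4 and 76.7 CPM in the mutants and 75.5, 81.1 and 73.5 CPM in the siblings. That of *smg6* (ENSDARG00000100481) was at 35.5, 47.7 and 41.3 CPM in the mutants and 40.0, 44.4 and 39.0 CPM in the siblings. For both genes mutant 1 was the lowest and mutant 2 the highest of the 6 libraries, with the siblings in between. The log2 fold changes were −0.013 (95% interval −0.28 to 0.26) and 0.013 (95% interval −0.30 to 0.33). Since each of these 2 estimates was close to 0, its sign was not stable, and the value was 0.052 for *smg5* without mutant 1 and −0.10 for *smg6* with library sizes alone as the scaling.

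**Figure D2:**
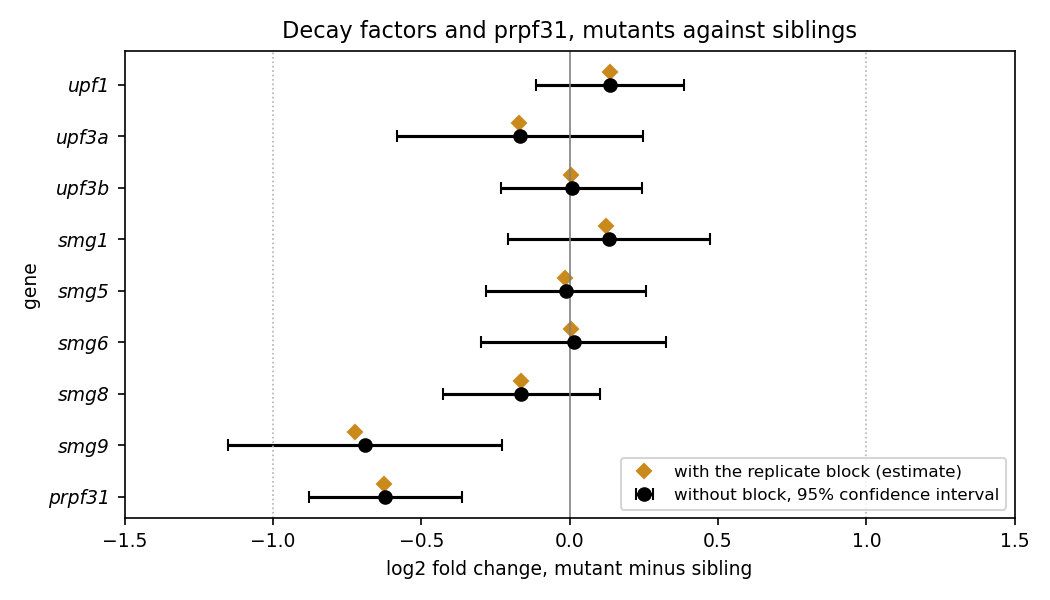
Log2 fold change (mutant minus sibling) of the 8 decay factors and *prpf31*, with the 95% confidence interval of the fit without a block (black) and the estimate with the replicate number as a block (diamonds). Dotted lines mark a 2-fold change. The intervals of *smg9* and *prpf31* lie below 0, and the intervals of the other 7 genes include 0 and end short of a 2-fold change on either side.

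For the 7 genes other than *smg9*, the 95% intervals limit how large a difference these libraries could have missed. The lowest bound of the 7 was 0.669-fold, in *upf3a*, and the highest was 1.39-fold, in *smg1*. A 2-fold rise or fall lay outside each of these intervals, which are per gene and are not adjusted for the number of genes. Without mutant 1 the estimates of the 7 genes lay between −0.12 (*smg8*) and 0.25 (*smg1*) on the log2 scale, and none was called. That fit called 2040 higher and 2029 lower among all 24821 tested genes.

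The deposited FPKM, which divide by gene length, allow the levels of different genes to be compared. In the siblings *upf3b*, *upf1* and *smg5* were the most abundant, with 23.0 ± 1.19, 22.0 ± 0.914 and 21.4 ± 1.33 FPKM (SD, n = 3 each), and these 3 changed places between libraries. The kinase gene *smg1* followed with 16.0 ± 1.37 FPKM and was at place 4 in each of the 6 libraries. The remaining genes had less than 10 FPKM in the siblings: 9.52 ± 0.370 for *smg9*, 7.56 ± 0.616 for *smg6*, 7.31 ± 0.691 for *smg8* and 6.29 ± 0.686 for *upf3a*. Each sibling value of *smg9* was above each of *smg6*, whereas the values of *smg6* and *smg8* overlapped, and so did those of *smg8* and *upf3a*. In the mutants the means were 21.3 ± 4.01 for *upf3b*, 22.2 ± 3.75 for *upf1*, 19.5 ± 4.22 for *smg5* and 16.3 ± 4.50 for *smg1*. They were 5.38 ± 1.60 for *smg9*, 7.05 ± 1.79 for *smg6* and 5.21 ± 1.48 FPKM for *upf3a* (SD, n = 3 each), and *smg8* had 4.66, 6.61 and 6.74 FPKM in the mutants. In the order of levels *smg9* was at place 5 in each sibling, at place 6 in mutants 1 and 2, and at place 8 in mutant 3.

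**Figure D3:**
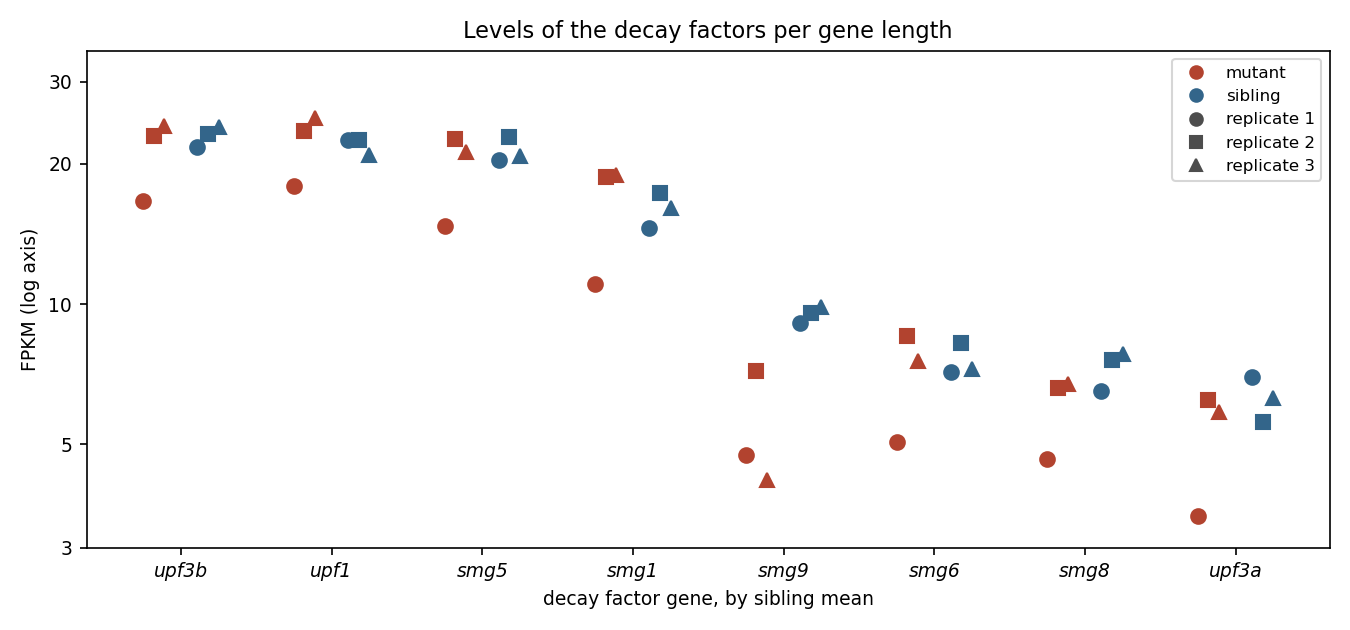
FPKM of the decay factors in each library on a log axis, with the genes ordered by their sibling mean. Mutants are red and siblings blue, and the marker shape gives the replicate number. Mutant 1 has the lowest value of the 6 libraries for 7 of the 8 genes, and for *smg9* mutant 3 is lower.

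Mutant 1 held the lowest FPKM of the 6 libraries for 7 of the 8 genes, and after TMM scaling the lowest CPM for 6 of the 8. The summed FPKM of the 8 genes was 78.4 in mutant 1, 117 and 114 in mutants 2 and 3, and 109, 117 and 113 in the siblings. After TMM scaling the summed CPM was 485, 589 and 574 in the mutants and 520.4, 548 and 514 in the siblings. The muscle and retinal levels of this library are given above, and their part in these sums was not tested.

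The genes that act beside the decay factors were described from 5 lists, with 59 of their 63 symbols matched, partly without the letter that marks a paralog. Among 12 other genes of NMD and of translation termination, 1 was called lower, none was called higher, and the median log2 fold change was 0.067. The shares over all tested genes were 3.96% called higher and 3.83% called lower, with a median of 0.019. The gene called was *pnrc2* (ENSDARG00000053291), whose human counterpart links UPF1 to the decapping enzyme. It had 132, 183 and 172 CPM in the mutants and 242, 259.8 and 254 CPM in the siblings, without overlap, and a log2 fold change of −0.63 (edgeR adjusted p = 0.0417). The leave-one-out fits gave values between −0.73 and −0.51 with adjusted p values of 0.00504 to 0.16, and the call was kept without mutant 1 and lost without any other library. The largest fold change of the list, 0.66 in the release factor gene *etf1a*, came from a level under 4 CPM and was not called (edgeR adjusted p = 0.414). With the replicate block, 1 copy of the release factor gene *gspt1* (ENSDARG00000031048, named after its values were seen) was called higher, with 91.1, 54.7 and 52.5 CPM in the mutants and 46.7, 42.7 and 37.7 CPM in the siblings (edgeR adjusted p = 0.0368 with the block, 0.126 without). The more abundant copy (ENSDARG00000098627) had 257, 298 and 287 CPM in the mutants and 273, 282 and 301 CPM in the siblings, with overlap. Its log2 fold change was −0.026, and it was not called (edgeR adjusted p = 0.899 with the block, 0.917 without).

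The exon junction complex is the mark of splicing that NMD reads. Of its 8 listed genes 7 were tested, 1 was called higher and 1 lower, and the median log2 fold change was 0.30. Over all tested genes 3.96% were called higher and 3.83% lower, and the median was 0.019. The RNA-clamping helicase gene of the complex, *eif4a3* (ENSDARG00000102978), had 329.9, 400.5 and 331 CPM in the mutants and 192, 196 and 182 CPM in the siblings. Each mutant was above each sibling, which gave a log2 fold change of 0.90 with a standard error of 0.13 (edgeR adjusted p = 0.00822). The gene *pym1* (ENSDARG00000046024), whose human counterpart strips the complex from translated messages, had 18.6, 20.2 and 19.9 CPM in the mutants and 26.8, 31.4 and 29.5 CPM in the siblings, a log2 fold change of −0.58 (edgeR adjusted p = 0.0219). Leaving out sibling 1, 2 or 3 lifted the adjusted p of *eif4a3* to between 0.0508 and 0.0669. The adjusted p of *pym1* was between 0.06 and 0.111 when 1 library was left out, mutant 1 excepted (0.0109). The 3 mutants were above the 3 siblings for 4 of the 7 tested genes of the complex, against 14.9% of all tested genes. One of these was the core gene *rbm8a*, which had a log2 fold change of 0.27 and was not called (edgeR adjusted p = 0.189).

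Smg1 belongs to a family of large kinases that fold with the help of the Telo2, Tti1 and Tti2 proteins and the Ruvbl1 and Ruvbl2 ATPases. Of these 10 genes, counting Smg1's relatives but not *smg1*, 1 was called higher and 3 lower, with a median of −0.24. Over all tested genes 3.96% were called higher and 3.83% lower, with a median of 0.019. The gene *ruvbl1* (ENSDARG00000002591) had 259, 335 and 341 CPM in the mutants and 81.9, 80.7 and 100.4 CPM in the siblings, or 3.55 times the sibling level (log2 fold change 1.83, standard error 0.16, edgeR adjusted p = 0.00122). It was called in each of the 15 alternatives. Its partner *ruvbl2* had 57.5, 86.3 and 86.4 CPM in the mutants and 56.5, 63.9 and 63.3 CPM in the siblings and was not called (edgeR adjusted p = 0.293). The cochaperone gene *tti2* (ENSDARG00000073773) was low in all libraries, at 2.63, 2.15 and 2.38 CPM in the mutants and 5.43, 4.64 and 4.58 CPM in the siblings (log2 fold change −1.03, edgeR adjusted p = 0.0153).

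Of the 5 relatives of Smg1 in the kinase family, *atm* and *prkdc* were called lower. The gene *atm* (ENSDARG00000002385), a kinase that responds to double-strand breaks, had 12.2, 14.5 and 14.1 CPM in the mutants and 19.0, 19.7 and 20.4 CPM in the siblings (log2 fold change −0.53, edgeR adjusted p = 0.0346). The gene *prkdc* (ENSDARG00000075083), the kinase of end joining, had 20.3, 25.0 and 24.1 CPM in the mutants and 30.7, 38.1 and 33.0 CPM in the siblings (log2 fold change −0.55, edgeR adjusted p = 0.0465). The others, *atr* (which also acts in the DNA damage response), *mtor* and *trrap*, were not called, with log2 fold changes of 0.091, 0.19 and −0.32. The number called in the list was 5 without mutant 1 and 1 without any other library. The calls of *atm*, *prkdc* and *tti2* were thus each lost when a library other than mutant 1 was left out. Without mutant 1, 2040 of all 24821 tested genes were called higher and 2029 lower. Without any other library these numbers were 247 to 498 higher and 110 to 397 lower.

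The general enzymes that finish the decay of a message showed no called gene, with 17 tested and a median of 0.033. Over all tested genes 3.96% were called higher and 3.83% lower, with a median of 0.019. The 3 mutants were below the 3 siblings for 6 of the 17 and above them for 2, against 17.4% and 14.9% of all tested genes. At an unadjusted p under 0.05 there were 4 of the 17, and the share of all genes at this cutoff was not counted. DESeq2 called 1 of the list, where it called 1768 higher and 1681 lower among 31067 genes. The highest value was in *ddx6* (ENSDARG00000061338), a helicase that promotes decapping, which had 19.6, 20.2 and 23.6 CPM in the mutants and 16.3, 13.4 and 15.3 CPM in the siblings. Its log2 fold change was 0.49 with an edgeR adjusted p of 0.0618, which fell to 0.043 with the replicate block and to 0.0224 without mutant 1. Without mutant 1, 3 genes of the list were called, where 2040 of all 24821 tested genes were called higher and 2029 lower. The lowest was in *dcp2* (ENSDARG00000104242), the decapping enzyme, with 20.9, 24.8 and 24.0 CPM in the mutants and 27.7, 29.0 and 30.3 CPM in the siblings (log2 fold change −0.32, edgeR adjusted p = 0.128). The exonuclease gene *xrn1* had a log2 fold change of 0.25 (edgeR adjusted p = 0.174).

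Some messages accumulate in mammalian cells when NMD is slowed, mostly those of stress-response genes with short upstream reading frames or long 3′ ends. Of 12 such genes 11 were tested, 2 were called higher and none lower, and the median was 0.084. Over all tested genes 3.96% were called higher and 3.83% lower, and the median was 0.019. The growth arrest gene *gadd45a* has 2 copies in the table. The copy ENSDARG00000043581 had 20.2, 27.1 and 34.2 CPM in the mutants and 5.11, 3.68 and 4.67 CPM in the siblings, a 6.06-fold difference (log2 fold change 2.60, standard error 0.22, edgeR adjusted p = 0.0012) that was called in each of the 15 alternatives. The copy ENSDARG00000104571 had a log2 fold change of 0.16 (edgeR adjusted p = 0.529). For the related *gadd45b*, the copy ENSDARG00000013576 had 7.62, 6.28 and 5.53 CPM in the mutants and 3.52, 3.56 and 3.91 CPM in the siblings (log2 fold change 0.82, edgeR adjusted p = 0.0311). Its adjusted p ran from 0.0214 without mutant 1 to 0.136 without sibling 2, and the call was lost without each library other than mutant 1. The more abundant *gadd45b* copy (ENSDARG00000027744) had 14.3, 11.4 and 11.7 CPM in the mutants and 10.1, 13.8 and 10.9 CPM in the siblings, with overlap. It was not called (log2 fold change 0.10, edgeR adjusted p = 0.747). By qPCR, the paper reports higher *p53* and p53 downstream genes in these mutants, and its primer list includes *gadd45*. It also reports that deleting *p53* in the mutants reduced the downstream genes. Whether the called *gadd45a* and *gadd45b* copies rose through p53 or through slower decay was not tested.

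The transcription factor genes of the same list did not rise together. The gene *atf4b* (ENSDARG00000038141) had 164, 165 and 175 CPM in the mutants and 223, 213 and 221 CPM in the siblings (log2 fold change −0.38, edgeR adjusted p = 0.0664, and 0.0129 without mutant 1). The value of *atf4a* was −0.22 (edgeR adjusted p = 0.471) and that of *ddit3* was 0.024 (edgeR adjusted p = 0.925). For *atf3*, named after its values were seen, the levels were 15.3, 18.2 and 9.23 CPM in the mutants and 9.33, 10.5 and 7.10 CPM in the siblings, with overlap. Its log2 fold change of 0.67 was not called without the block (edgeR adjusted p = 0.171) and was called with it (0.0282).

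**Figure D4:**
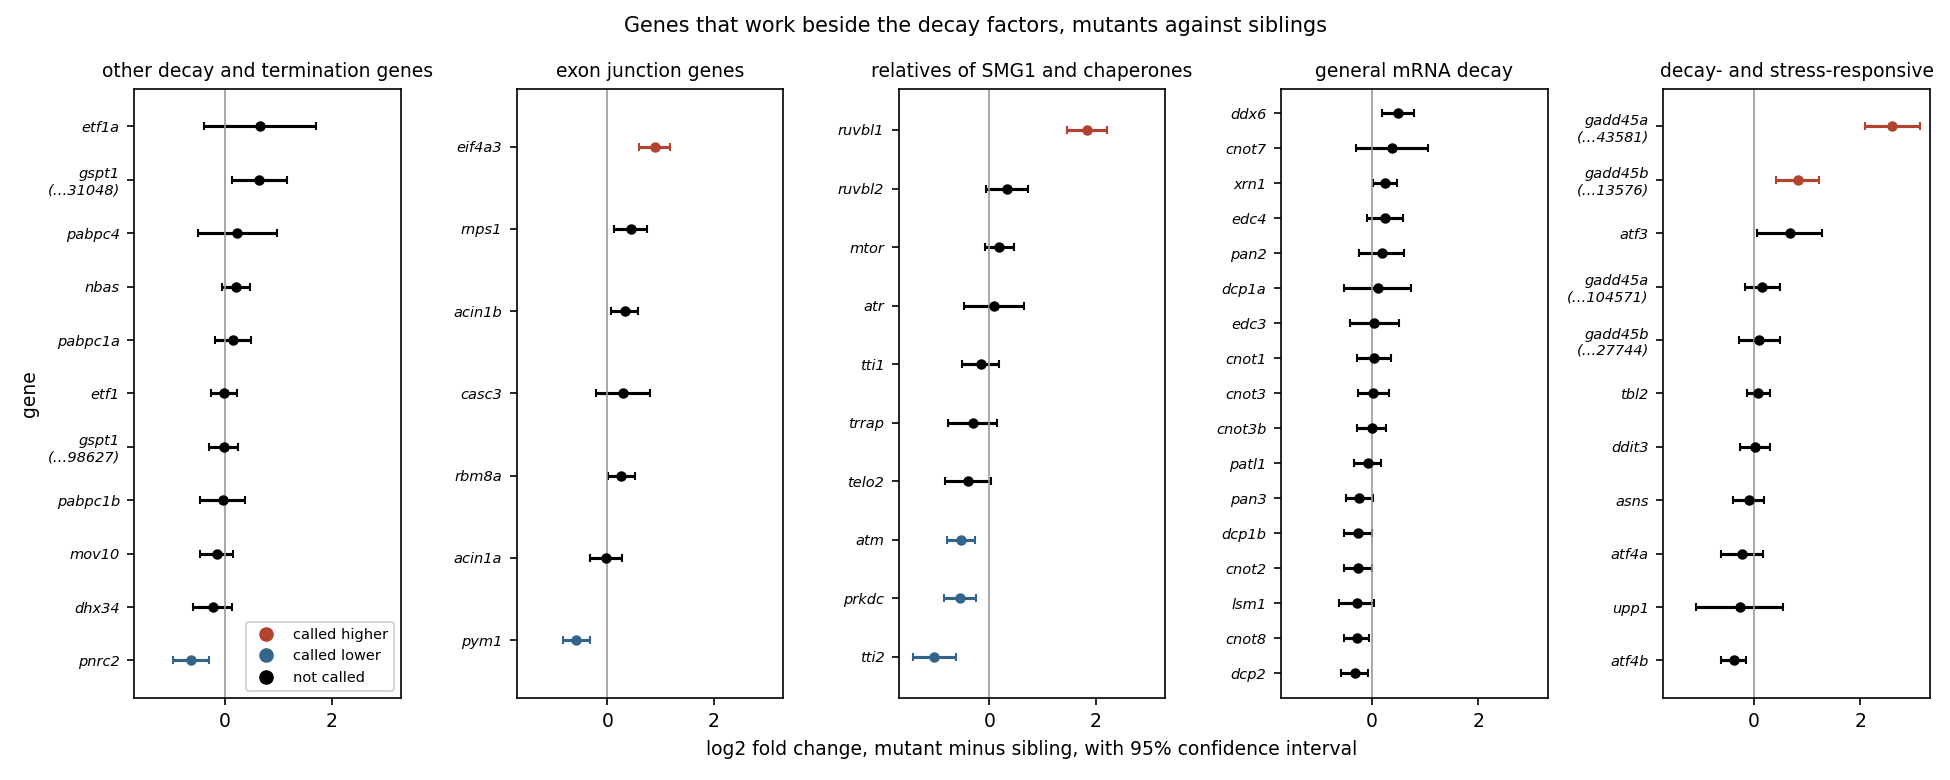
Log2 fold change (mutant minus sibling) with its 95% confidence interval for genes of the 5 lists, each panel ordered from the highest at the top to the lowest. Red and blue mark genes called higher and lower by edgeR without a block, and digits under a name are the end of the Ensembl identifier of that copy. The values of *gadd45a* (2.60) and *ruvbl1* (1.83) are the highest, and that of *tti2* (−1.03) the lowest.

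The genes whose pattern over the 6 libraries was most like that of *smg9* were looked up among 17447 genes with a symbol and a mean of at least 1 CPM. The highest Pearson correlations of log2 CPM were with *ggt7* (0.988), *tab1* (0.988), *abi2* (0.987), *mitd1* (0.985) and *nelfe* (0.984), over 6 libraries that share the contrast of mutants with siblings. In each of the 5, mutant 3 was the lowest and the siblings the highest libraries, as in *smg9*. The genes were picked for their likeness to *smg9*, so this shared order is not a separate result. The size of the difference was not alike in the 5, since a correlation does not measure it. The gene *mitd1* had 2.46, 2.68 and 1.93 CPM in the mutants and 3.40, 3.65 and 3.44 CPM in the siblings. In *ggt7*, *tab1*, *abi2* and *nelfe* the groups were closer together relative to their level. For example, *nelfe* had 28.7, 29.9 and 27.0 CPM in the mutants and 30.9, 31.7 and 32.1 CPM in the siblings.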

How the data were processed

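Per the labels and the methods, HISAT2 2.0.4 placed the reads on GRCz11. The deposited counts are whole fragments per gene without normalization, and both featureCounts and HTSeq-count (HTSeq 0.9.1 in the processing notes) are named as the counter. The deposited FPKM derive from these counts, since 1 length per gene gave them back within 2.3e-08 over 22043 genes. The annotation and any use of strand are not given in the sources used here, so genes that overlap another gene are uncertain.

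Symbols were matched to identifiers through the reference table, ignoring case. Low genes were removed by filterByExpr. After TMM scaling, edgeR 4.0.16 (R 4.3.3) ran its quasi-likelihood test on 24277 genes with Benjamini-Hochberg adjusted p-values. Alternatives used DESeq2 1.42.0 and limma 3.58.1. The common biological coefficient of variation was 0.243. The p-values set the difference between groups against the spread between pools. Without the block, that spread includes whatever libraries of the same replicate number share. The fits were tested on simulated data.

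Libraries with the same replicate number deviated together over 19484 genes (correlations of 0.415, 0.41 and 0.547, against −0.334 to −0.117 for different numbers), and the numbers were taken to pair them. Deviations were taken from each group's mean. Positive values for the same number therefore make those for different numbers negative on average, so the negative values are not separate evidence. The labels do not say what a number stands for.

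Named genes were the members, *prpf31*, in each list the called genes and the highest and lowest, and the 5 genes most like the member with the smallest p. Other genes of the lists (both copies of *gspt1*, *rbm8a*, *ruvbl2*, *atr*, *mtor*, *trrap*, *xrn1*, *atf4a*, *ddit3*, *atf3*, the second copies of *gadd45a* and *gadd45b*) and the marker *cryaa* were named after their values were seen. The members and lists were chosen with earlier results of these data known. The value of 1 listed gene is not reported here, although the counts and median of its list include it.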

Additional observations from a re-analysis of the deposited data

How the results depend on the processing

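The directions of *upf1*, *upf3a*, *smg8* and *smg9* were the same under all 15 alternatives fixed for them, and no decay factor was called higher in these. DESeq2 and the replicate block each called 1 lower (*smg9*). In blocked fits that left out 1 pair, chosen after seeing the data, 0 to 1 were called higher and 0 to 1 lower. The share of all genes called in those fits was not counted, so these calls have no background to be read against. In the blocked fit without pair 1, *upf3a* was at 0.061. Signs near 0 reversed: *upf3b* was at −0.11 with library sizes alone, −0.0023 without a filter, and −0.12 (pseudocount 1, with or without a filter) and −0.13 (pseudocount 0.1) in limma on FPKM. In the same limma fits *smg1* was at −0.012 and −0.015, and *smg6* at −0.11 and −0.13, with −0.10 for library sizes alone. Library sizes alone and limma moved the median of all genes to between −0.12 and −0.025, whereas edgeR without a filter put it at 0.032. Leaving out 1 library gave −0.030 to 0.049 for *upf3b*, −0.085 to 0.052 for *smg5* and −0.099 to 0.10 for *smg6*, and leaving out 1 pair in the blocked fit gave −0.011 and −0.010 for *upf3b*, 0.040 for *smg5*, and −0.045 and −0.035 for *smg6*. *prpf31* was not called with library sizes alone (−0.74) or limma (−0.73 and −0.76), and ranged from −0.70 to −0.56 over the leave-one-out fits. Over all genes, the numbers called higher and lower were 1768 and 1681 with DESeq2, 400 and 519 with library sizes alone, 1479 and 1605 with the replicate block, 413 and 609 with limma at pseudocount 0.1, and 337 and 337 without a filter, with 424 higher at pseudocount 1. They ranged from 247 to 2040 and from 110 to 2029 over the leave-one-out fits, the highest without mutant 1. Other NMD genes called numbered 0 with library sizes alone and in limma, 2 with the replicate block and 0 to 2 leaving out 1 library. For the exon junction complex this was 1 with library sizes alone, 1 or 0 in limma, and 0 to 3. For the kinase list it was 2, 2, and 1 to 5. For general decay it was 1 with DESeq2, 1 with the block, and 0 to 3. For NMD-responsive genes it was 1 with library sizes alone, 1 in limma without a filter, and 1 to 4. The causes were not tested.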
